A study of Lachancea kluyveri with 16 samples.

Results

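The change from glucose to glycerol in wild-type Lachancea kluyveri was measured with the 4 arrays of wild-type cells in YPGly against the 4 arrays of wild-type cells in YPD, 8 of the 16 arrays of the series. L. kluyveri is a budding yeast whose lineage left that of baker's yeast before the whole-genome duplication. The wild type was strain JYL1897, a MATa ura3 laboratory strain on which the study's deletion of SEF1 was built, and that deletion (sef1Δ), with 4 arrays in either medium, made up the rest of the series. YPD is a rich medium with glucose, and YPGly is the same kind of medium with glycerol. Cultures were grown overnight in YPD at 28 °C, brought to 0.2 OD600 per ml in fresh YPD or YPGly and collected after 5.5 h at 30 °C. The glycerol cells had therefore left glucose 5.5 h earlier, and adaptation to glycerol and growth on it cannot be told apart in these data. The labels call the 4 arrays of a group biological repeats.

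Glucose is broken down by glycolysis, and in many yeasts most of the pyruvate formed then leaves as ethanol by way of acetaldehyde. Glycerol cannot be fermented by most yeasts. It is phosphorylated by glycerol kinase, oxidized by a mitochondrial dehydrogenase to dihydroxyacetone phosphate, and enters the glycolytic pathway in its middle, so that hexoses have to be made by gluconeogenesis and energy comes from respiration. When glucose is present, baker's yeast represses the genes for respiration, gluconeogenesis and the use of other carbon sources, and the roles given below are those of the baker's yeast orthologs.

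Of the 5316 genes on the array, 4255 were bright enough to be tested, 2157 of them with an ortholog symbol. Levels are log2 of the processed signal relative to the 75th percentile of the array, and changes are mean YPGly levels less mean YPD levels. Genes past both an adjusted p of 0.05 (limma, Benjamini-Hochberg) and a 1.5-fold difference were called. The 75th percentile of the processed signal lay between 817 and 2234 on the 8 arrays. Well above background were 90.5% of probes on YPD replicate 4 and 96.3% to 98.7% on the other 7 arrays. On YPD replicate 4 the negative controls had a median log2 signal of 4.05, against 1.25 to 1.99 elsewhere, so low levels in YPD were measured less well there. Arrays correlated across genes at 0.940 to 0.980 within YPD, at 0.933 to 0.974 within YPGly and at 0.696 to 0.788 between media. Every YPD array was printed in column 1 of its slide and every YPGly array in column 2, so that position on the slide and medium cannot be told apart.

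The strain was checked first. SEF1 (SAKL0F12342g), the gene deleted in the other strain, was well above background on all 8 wild-type arrays, at -1.93 ± 0.50 (SD, n = 4) in YPD and -1.56 ± 0.12 (SD, n = 4) in YPGly. On the 8 sef1Δ arrays it read -9.56 to -5.90 and was well above background on 1. The a-cell genes STE2, STE6 and AGA2, which encode a pheromone receptor, a pheromone exporter and an agglutinin subunit, and the alpha-cell genes STE3, SAG1 and the alpha mating factor precursor were all well above background on all 8 arrays. Levels of different probes cannot be compared, so these markers do not check the mating type. The precursor (MATalphaPre, SAKL0A05236g) fell by 2.36 on the log2 scale in YPGly (SE 0.47, adjusted p 0.00222), and STE2 (SAKL0B01584g) fell by 0.95 (SE 0.16, adjusted p 0.000933), a change that was -0.51 with quantile normalization and -0.28 with spike-in scaling, not called under either.

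Glycerol changed 1782 of the 4255 genes, 41.9%, by at least 1.5-fold. Higher in YPGly were 746 genes (17.5%) and lower were 1036 (24.3%). The rises reached further than the falls: 60 genes rose by at least 4 on the log2 scale and 5 fell by as much, with a median change of 1.11 among the higher genes and -1.002 among the lower ones. Over all genes tested the median change was -0.14, and 41.8% of genes lay above 0. The level ranges of the 4 arrays of each medium did not overlap for 45.2% of all genes, 18.5% with YPGly higher and 26.7% with YPGly lower. Scaling the arrays to their 6 spike-in control probes in place of the 75th percentile moved the median of all genes by 0.67, to 0.53, and turned the split to 1497 higher and 179 lower. The methods do not say that control RNA was added. RNA came from whole cultures, so fewer cells with an mRNA and less of it in each cell cannot be told apart. Because the split depended on the scaling, the groups below are given beside the median of all genes, and a group whose direction depends on the scaling is named as such.

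**Figure D1:**
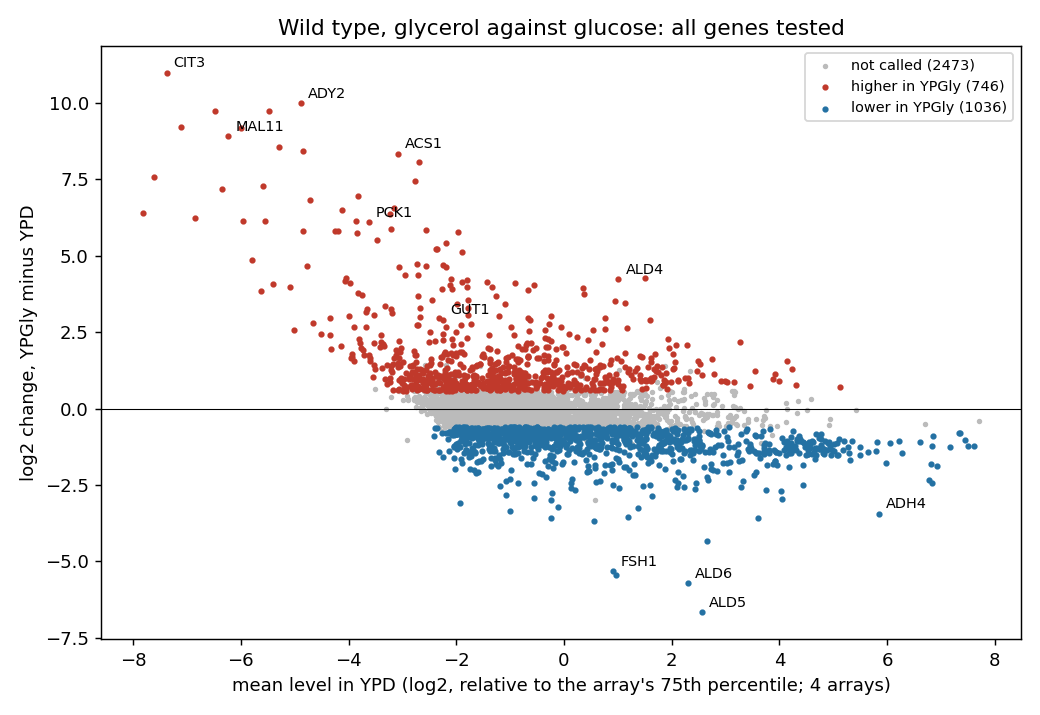
Log2 change in YPGly against YPD (vertical axis) by mean level in YPD (horizontal axis, log2 relative to the 75th percentile of the array, 4 arrays) for the 4255 genes tested in the wild type. Red points are the 746 genes called higher, blue the 1036 called lower and grey the 2473 not called. Of the genes called higher, 4 were not well above background on any YPD array and 49 on only 1 to 3 of them, so the height of their points is not an exact change. The largest fall was that of ALD5, at -6.67.

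The enzymes that bring glycerol into metabolism rose, and those that make glycerol from glucose fell. GUT1 (SAKL0H25938g), glycerol kinase, read -2.09, -1.76, -2.44 and -2.73 on the 4 YPD arrays and 0.42, 0.73, 1.08 and 0.38 on the 4 YPGly arrays, a rise of 2.91 (SE 0.24, adjusted p 8.03e-06). GUT2 (SAKL0E15114g), the mitochondrial glycerol-3-phosphate dehydrogenase, went from 1.04, 0.70, 0.64 and -0.22 to 2.96, 3.27, 3.12 and 3.12, a rise of 2.57 (SE 0.24, adjusted p 2.38e-05). The 2 media did not overlap for either gene, and 18.5% of all genes were higher in YPGly without overlap. DAK1 (SAKL0G17578g), a dihydroxyacetone kinase, rose by 1.35. On the side of synthesis, GPD1 (SAKL0C07502g), which reduces dihydroxyacetone phosphate to glycerol 3-phosphate, fell by 1.86 (3.95 ± 0.16 to 2.10 ± 0.34, SD, n = 4, adjusted p 3.96e-05). GPP1 (SAKL0F08690g), the phosphatase that frees glycerol, fell by 1.47. The glycerol channel gene FPS1 (SAKL0H25916g) fell by 0.89 and GUP1 (SAKL0A05126g), a membrane protein tied to glycerol uptake in older work, fell by 1.12. STL1 (SAKL0G18810g), which encodes the glycerol symporter, was not called. Its levels were 0.11, 1.61, 1.58 and -1.25 in YPD and 0.66, 0.46, 1.32 and 1.54 in YPGly, with a change of 0.48 (SE 0.57, adjusted p 0.508), and its spread between YPD arrays was larger than the difference. In all, 3 of the 8 genes of glycerol use rose and 4 fell, against 17.5% and 24.3% of all genes. Under spike-in scaling the same list gave 4 higher and 1 lower, and the call that was left was that of GPD1.

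The enzymes of gluconeogenesis and of the glyoxylate cycle, which lets cells build sugars from acetyl units, were among the strongest responses. PCK1 (SAKL0E15048g), phosphoenolpyruvate carboxykinase, read -3.77, -4.01, -3.32 and -3.42 in YPD and 1.69, 3.53, 1.60 and 3.07 in YPGly, a rise of 6.10 (SE 0.41, adjusted p 1.63e-06). FBP1 (SAKL0H03740g), fructose-1,6-bisphosphatase, rose by 4.21, from -1.81 ± 0.23 to 2.40 ± 0.66 (SD, n = 4, adjusted p 2.2e-06). ICL1 (SAKL0F08756g), isocitrate lyase, rose by 5.80 (adjusted p 3.09e-05), and its 4 YPGly arrays were spread from 0.11 to 3.57. It was well above background on 3 of the 4 YPD arrays. MDH2 (SAKL0C12760g), cytosolic malate dehydrogenase, rose by 1.30. MLS1 (SAKL0E10846g), malate synthase, was not called: its levels of -0.54 to 1.61 in YPD and 0.06 to 2.86 in YPGly overlapped, with a change of 1.00 (SE 0.62, adjusted p 0.206, and 0.000566 to 0.56 over the alternatives). With the replicate number as a block it was called (adjusted p 0.017). PYC1 (SAKL0A07128g), pyruvate carboxylase, which refills oxaloacetate, fell by 1.08 (SE 0.19, adjusted p 0.00106). The PYC1 fall was not called under spike-in scaling, where the change was -0.40.

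Genes around acetaldehyde and acetate split into opposite directions according to the isoenzyme. Of the 23 genes of acetate, ethanol and lactate metabolism tested, 9 rose and 8 fell, against 17.5% and 24.3% of all genes. ACS1 (SAKL0D14608g), one of the 2 acetyl-CoA synthetases, read -2.81, -3.19, -3.22 and -3.13 in YPD and 4.77, 4.56, 5.45 and 6.23 in YPGly. The rise of 8.34 (SE 0.32, adjusted p 5.01e-08), 324-fold, was the largest of any gene well above background on all 8 arrays, and its other probe moved the same way. ACS2 (SAKL0H14542g), the other synthetase, fell by 1.79, from 3.02 ± 0.11 to 1.24 ± 0.32 (SD, n = 4, adjusted p 3.67e-05).

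The aldehyde dehydrogenases, which turn acetaldehyde into acetate, showed the same contrast. ALD4 (SAKL0D14806g), a mitochondrial form, rose by 4.23, from 1.66, 1.15, 0.69 and 0.53 in YPD to 5.08, 4.74, 5.40 and 5.74 in YPGly (adjusted p 1.61e-06). ALD5 (SAKL0F09108g), also mitochondrial in baker's yeast, fell by 6.67, from 3.35, 2.98, 2.56 and 1.34 to -4.47, -4.14, -4.95 and -2.88 (SE 0.49, adjusted p 3.38e-06), which was the largest fall in the data. ALD6 (SAKL0H10252g), the cytosolic form, fell by 5.72, from 3.40, 2.66, 2.43 and 0.73 to -3.06, -3.85, -3.32 and -3.40 (SE 0.46, adjusted p 7.51e-06). Media did not overlap for any of these 3 genes, as for 45.2% of all genes.

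Pyruvate decarboxylase and alcohol dehydrogenase genes were divided too. PDC1 has 3 genes in the table: SAKL0G10164g fell by 1.81 and SAKL0G14894g by 1.88, whereas SAKL0F04334g rose by 2.95, from 0.77 ± 0.48 to 3.72 ± 0.09 (SD, n = 4, adjusted p 4.6e-06). ADH1 (SAKL0C10164g) fell by 2.44 and ADH2 (SAKL0F06270g) by 2.35, but the array's probe names mark these probes as shared with another gene, so the pair may not be measured apart. ADH4 (SAKL0C13926g) fell by 3.44 (SE 0.63, adjusted p 0.00134), with 3.00, 3.17, 0.03 and 3.42 in YPGly, replicate 3 being far below the rest. ADH5 (SAKL0H00374g) rose by 4.62 (adjusted p 2.92e-07). The mitochondrial alcohol dehydrogenase gene ADH3 (SAKL0B08184g) rose by 1.29. For a second ADH3 gene (SAKL0E02838g) the probes disagreed: the brighter gave 0.44 (adjusted p 0.105) and the dimmer -3.78, so its response is not settled here.

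Carriers of small organic acids showed some of the largest increases. ADY2 (SAKL0D09328g), an acetate permease, went from -4.74, -4.08, -4.65 and -6.09 in YPD to 4.21, 5.04, 4.88 and 6.32 in YPGly, a rise of 10.00 (SE 0.48, adjusted p 1.81e-07). JEN1, the lactate and pyruvate permease, rose by 9.17 for SAKL0F02178g and by 3.03 for SAKL0G14938g. The lactate dehydrogenase gene DLD1 (SAKL0F11704g) rose by 1.60. In YPD, ADY2 was well above background on 3 of 4 arrays and JEN1 (SAKL0F02178g) on 2 of 4, so their fold changes rest partly on readings near the background.

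**Figure D2:**
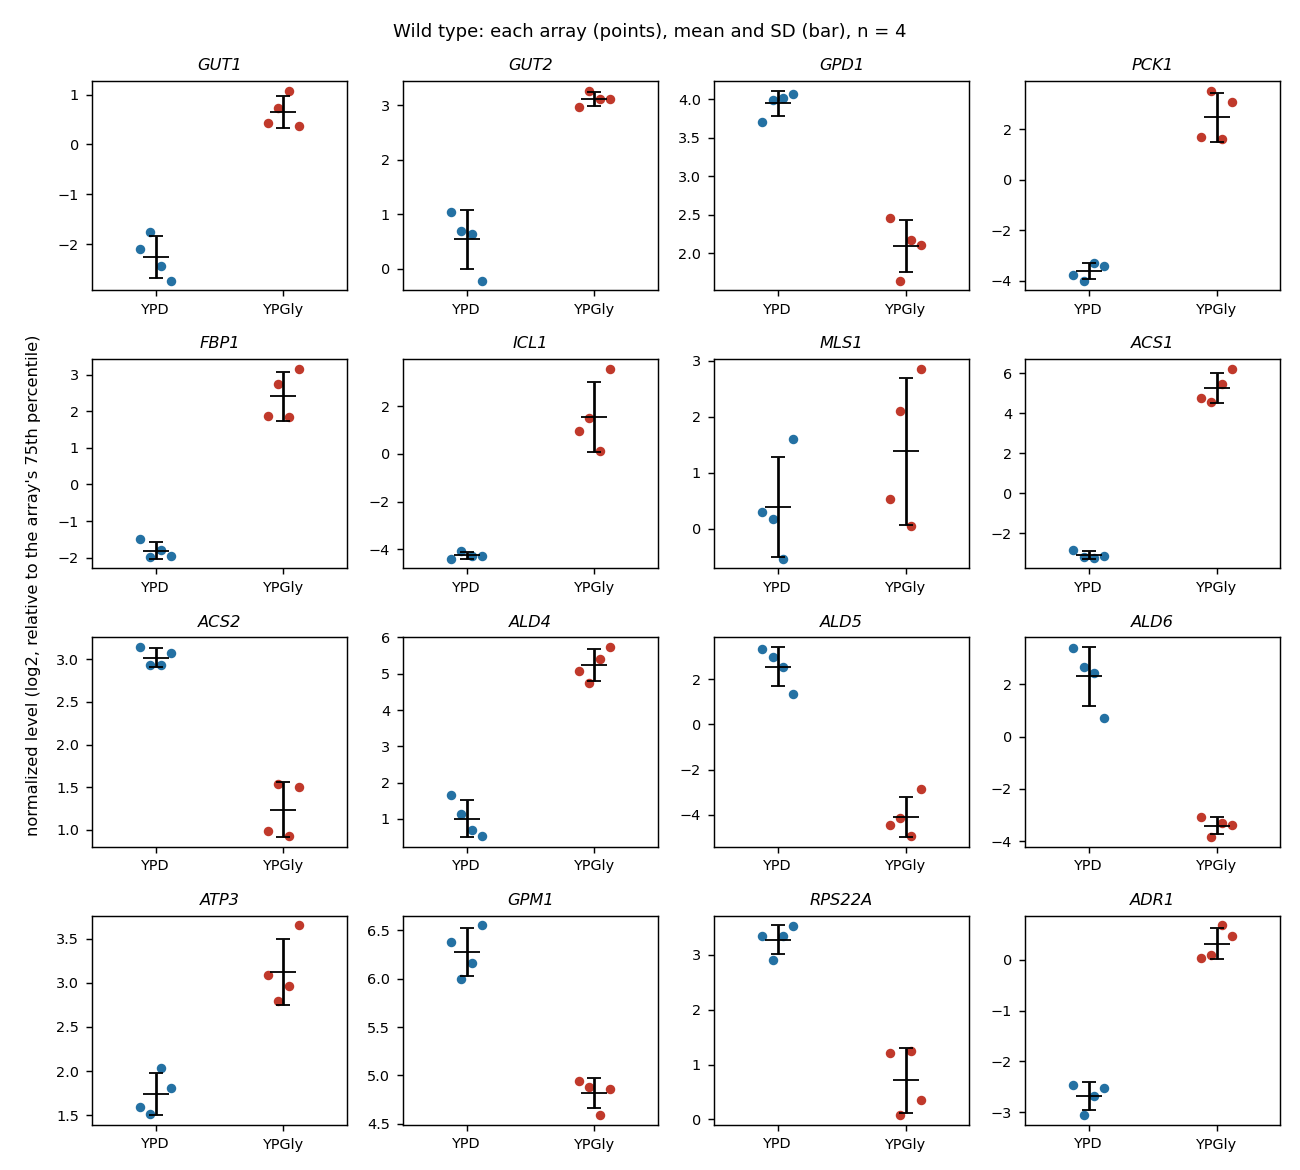
Normalized level (log2, relative to the 75th percentile of the array) of 16 genes on each of the 4 YPD arrays (blue) and the 4 YPGly arrays (red) of the wild type. Black bars are the mean and SD, the vertical scale differs between panels, and MLS1 is the panel in which the 2 media overlap.

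In the TCA cycle, which oxidizes acetyl-CoA in mitochondria, 13 of 21 genes rose (against 17.5% of all genes) and the other 8 did not pass the test, with changes of -0.08 to 0.57. The median was 0.90, which is 1.04 above that of all genes. CIT3 (SAKL0B02926g), a citrate and methylcitrate synthase, was not well above background on any YPD array and read 2.93, 3.46, 3.27 and 4.78 in YPGly. Set against the lowest signal well above background on each YPD array, it was at least 691-fold higher. The adjusted p of its measured change was 9.11e-08 (limma), which rests on YPD readings near the background and does not test that bound. IDP3 (SAKL0D08426g), a peroxisomal NADP-dependent isocitrate dehydrogenase, rose by 6.36 (SE 0.43, adjusted p 1.63e-06). MDH3 (SAKL0E04928g), peroxisomal malate dehydrogenase, rose by 2.58, and LSC2 (SAKL0H02464g), a subunit of succinyl-CoA ligase, by 1.82. In baker's yeast IDP3 and MDH3 are peroxisomal forms and not enzymes of the mitochondrial cycle itself, and where these proteins lie in L. kluyveri was not measured.

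CIT1 (SAKL0D09152g), the main citrate synthase, rose by 1.14 (SE 0.33, adjusted p 0.0162), and ACO1 (SAKL0H24046g), aconitase, by 0.76 (SE 0.23, adjusted p 0.0211). The call of ACO1 was lost without any 1 of 4 arrays, YPD replicates 1, 2 and 3 (adjusted p 0.0509 to 0.0531) and YPGly replicate 4 (change 0.52). IDH1 (SAKL0E07876g) and IDH2 (SAKL0G03520g), the subunits of mitochondrial isocitrate dehydrogenase, were not called. IDH1 read 2.10, 2.01, 1.82 and 2.92 in YPD and 2.34, 2.09, 2.39 and 3.10 in YPGly, and IDH2 differed by 0.28 (SE 0.26, adjusted p 0.393). Both media overlapped for both subunits.

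Among the 23 genes of the respiratory chain and ATP synthase, 16 rose and 2 fell (against 17.5% and 24.3% of all genes), with a median of 0.98. The changes were smaller than those above and close to each other: the 16 rises ran from 0.88 to 2.16. COX26 (SAKL0H16786g), a small subunit of cytochrome c oxidase, rose by 2.16 (3.27 ± 0.75 to 5.43 ± 0.29, SD, n = 4, adjusted p 0.000451). QCR6 (SAKL0H25982g) and RIP1 (SAKL0D11242g), subunits of the cytochrome bc1 complex, rose by 1.93 and 1.69. ATP3 (SAKL0D04158g), the gamma subunit of ATP synthase, rose by 1.39, with 1.59, 1.51, 2.04 and 1.81 in YPD and 3.09, 2.80, 2.96 and 3.66 in YPGly. NDI1, which passes electrons from NADH into the chain inside mitochondria, has 2 genes that went opposite ways: SAKL0D01056g rose by 1.57 and SAKL0C09438g fell by 1.06. Between 12 and 16 of these genes rose when 1 array was left out.

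Mitochondrial carriers, which move metabolites over the inner membrane, gave 6 rises and 5 falls among 21 genes, the falls at a share near the 24.3% of all genes (17.5% rose). SFC1 (SAKL0F14234g), the succinate and fumarate carrier, rose by 7.20 (SE 0.41, adjusted p 5.19e-07), from -6.22, -5.71, -7.48 and -5.99 to 0.04, 0.87, 0.80 and 1.70. It was well above background on 1 of the 4 YPD arrays. CRC1 (SAKL0E10186g), which carries acylcarnitine, rose by 4.70, and PET9 (SAKL0B06754g), the ADP/ATP carrier, by 1.12. The falls included YMC2 (SAKL0A10670g) at -2.42, PET8 (SAKL0D08646g), the S-adenosylmethionine carrier, at -1.82, and YHM2 (SAKL0B05764g), a citrate and oxoglutarate carrier, at -1.22.

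Peroxisomal beta-oxidation, the pathway that shortens fatty acids to acetyl-CoA, rose in most of its genes. Of 25 genes of beta-oxidation and the peroxisome, 19 rose, 2 fell and 4 were not called (17.5% of all genes rose and 24.3% fell), with a median of 1.72, 1.86 above that of all genes. The counts of 19 and 2 were the same without any 1 array. POX1 (SAKL0F02068g), the acyl-CoA oxidase of the first step, read -2.63, -1.93, -2.48 and -3.18 in YPD and 2.86, 3.38, 3.27 and 3.70 in YPGly, a rise of 5.86 (SE 0.27, adjusted p 1.17e-07). FOX2 (SAKL0A09196g), the multifunctional enzyme of the next steps, rose by 6.96, and POT1 (SAKL0E15246g), the thiolase of the last step, by 8.43. Media did not overlap for any of the 3 genes, and 18.5% of all genes were higher in YPGly without overlap.

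Genes around this pathway rose too. PXA1 (SAKL0H06908g), a subunit of the peroxisomal importer of fatty acids, rose by 7.30. SPS19, a dienoyl-CoA reductase needed for unsaturated fatty acids, is the symbol of several genes, of which SAKL0H09460g rose by 9.22 and SAKL0E13464g by 5.81 while SAKL0D11484g fell by 1.15. FAA2 (SAKL0F03960g), an acyl-CoA synthetase, rose by 3.97, CTA1 (SAKL0H11198g), the peroxisomal catalase, by 4.11, and PEX11 (SAKL0C13816g), which acts in the multiplication of peroxisomes, by 2.44. PEX2 (SAKL0C03762g), a peroxin of the import machinery, fell by 0.84. Of these, FOX2, POT1 and SPS19 (SAKL0E13464g) were well above background on 3 of the 4 YPD arrays, PXA1 on 2 and SPS19 (SAKL0H09460g) on 1.

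**Figure D3:**
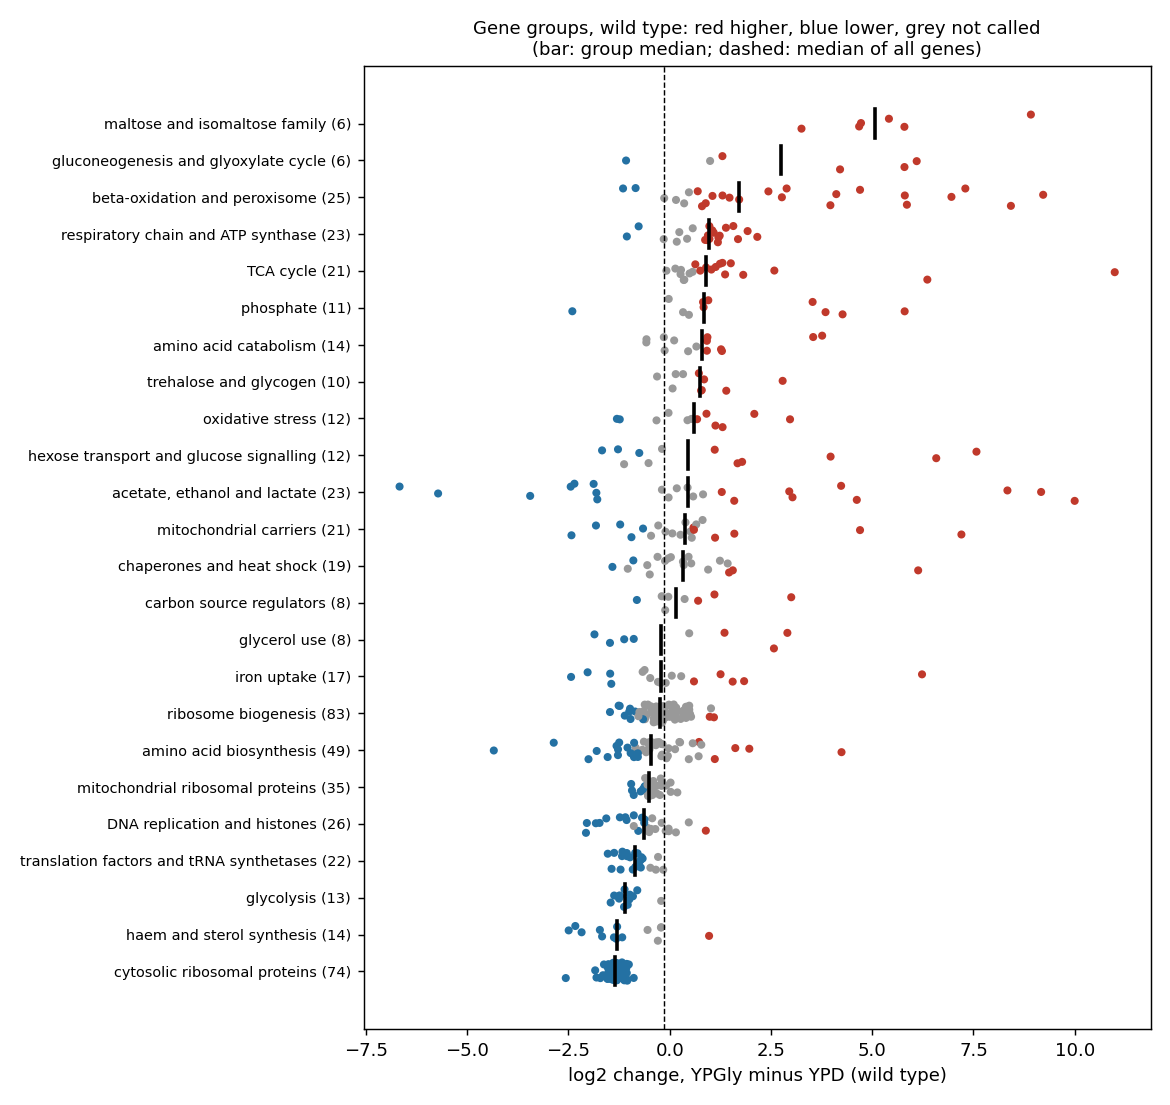
Log2 change in YPGly against YPD of every tested member of 24 gene groups in the wild type, with the number tested in parentheses. Red points were called higher, blue lower and grey not called; black bars are group medians and the dashed line is the median of all 4255 genes, -0.14. The maltose and isomaltose family had the highest median, 5.07, and the cytosolic ribosomal proteins the lowest, -1.35.

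Most glycolysis genes went down under the main scaling. Of 13 genes, 12 fell (against 24.3% of all genes), by 0.80 to 1.46, and the median was -1.11. For 1 of the 13 the probes gave opposite directions. With the mean of both probes or the dimmer probe, 12 were called lower and 1 higher. GPM1 (SAKL0G11352g), phosphoglycerate mutase, read 6.38, 5.996, 6.16 and 6.55 in YPD and 4.95, 4.88, 4.59 and 4.86 in YPGly, a fall of 1.46 (SE 0.17, adjusted p 8.26e-05). PGI1 (SAKL0H09922g), phosphoglucose isomerase, fell by 1.37, PGK1 (SAKL0D10384g), phosphoglycerate kinase, by 1.25, CDC19 (SAKL0B10934g), pyruvate kinase, by 1.24, TDH3 (SAKL0C10186g), a glyceraldehyde-3-phosphate dehydrogenase, by 1.03 and HXK2 (SAKL0F00462g), hexokinase, by 1.00. These falls were uniform in size but depended on how arrays were scaled. Quantile normalization gave a median of -0.39 and 3 genes called lower, and spike-in scaling a median of -0.44, with no gene called by limma and 2 lower at an unadjusted p under 0.05. Relative to all genes the median was -0.97, and -0.29 with quantile normalization. Spike-in scaling shifts every gene alike and cannot change that distance.

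Genes that sense and import hexoses moved both ways, 6 up and 3 down among 12, against 17.5% and 24.3% of all genes. RGT2, a glucose sensor of the plasma membrane, is the symbol of 2 genes. SAKL0D10450g read -2.54, -1.86, -3.82 and -4.39 in YPD and 2.71, 3.87, 2.75 and 4.39 in YPGly, a rise of 6.58 (SE 0.56, adjusted p 9.52e-06). SAKL0B00264g was not well above background on any YPD array and was at least 55.4-fold higher in YPGly. The adjusted p of its measured change was 2.72e-05 (limma), which does not test that bound. The hexose transporter genes HXT1 (SAKL0D14960g) and HXT3 (SAKL0G07656g) rose by 3.97 and 1.79, and HXT8 (SAKL0C00154g) fell by 1.67. HXT1 and the RGT2 gene SAKL0D10450g were well above background on 3 of the 4 YPD arrays. Of the glucose repressors, MIG1 (SAKL0H20988g) rose by 1.68, from -1.04 ± 0.12 to 0.64 ± 0.29 (SD, n = 4, adjusted p 4.43e-05), and MIG2 (SAKL0F01980g) fell by 1.27.

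Of 8 regulators of carbon source use tested, ADR1 (SAKL0H12958g) stood out. This activator of genes for ethanol, glycerol and fatty acid use read -2.46, -3.06, -2.68 and -2.52 in YPD and 0.04, 0.09, 0.69 and 0.47 in YPGly, a rise of 3.00 (SE 0.20, adjusted p 1.63e-06). USV1 (SAKL0A03476g), a zinc finger factor of growth on non-fermentable carbon, rose by 1.11 (adjusted p 0.0311) with media that overlapped, and RTG3 (SAKL0F13563g), of the retrograde pathway, by 0.70 (adjusted p 0.0219). USV1 lost its call without any 1 of 6 arrays (adjusted p 0.0674 to 0.0845) and RTG3 without any 1 of 3. SIP2 (SAKL0F02002g), a beta subunit of the Snf1 kinase, fell by 0.81. SEF1 itself was not called (0.37, SE 0.23, adjusted p 0.216). CAT8 (SAKL0D01342g), an activator of gluconeogenic genes, was -0.03 by its brighter probe and 1.16 by its dimmer one, so no direction can be given for it. Its spot on YPD replicate 3 was marked as non-uniform and left out, so its YPD mean rests on 3 arrays.

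The machinery of cytosolic translation was lower. All 74 cytosolic ribosomal protein genes tested fell (against 24.3% of all genes), within a narrow range of 0.89 to 2.56, and the 2 media did not overlap for any of them, against 26.7% of all genes that were lower without overlap. Their median of -1.35 was 1.21 below that of all genes. RPS22A (SAKL0C04488g) fell most, from 3.34, 2.91, 3.34 and 3.53 to 1.20, 0.07, 1.24 and 0.35 (2.56, SE 0.28, adjusted p 5.52e-05). RPS14A (SAKL0C04466g) fell by 1.84 and RPS30B (SAKL0A07898g) by 0.89. With quantile normalization 65 of the 74 were called lower and with spike-in scaling 18, at a median of -0.67. Relative to all genes the median was -0.83 with quantile normalization, and spike-in scaling cannot change that distance. Translation factors and tRNA synthetases gave 18 falls among 22 genes (24.3% of all genes fell), with FRS1 (SAKL0B01188g), a subunit of phenylalanyl-tRNA synthetase, at -1.53 and HYP2 (SAKL0D11770g), the translation factor eIF5A, at -1.43. Their median was -0.85 and under spike-in scaling -0.17, with 1 call.

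The genes that build ribosomes were mostly not called. Of 83 genes of ribosome biogenesis, 9 fell, 2 rose and 72 were not called (against 24.3% and 17.5% called in all), with a median of -0.23 that turned to 0.44 under spike-in scaling, where 16 were called higher. The falls included GAR1 (SAKL0G07920g), a protein of the particles that modify ribosomal RNA, at -1.47 and EMG1 (SAKL0C02002g), a ribosomal RNA methyltransferase, at -1.26, while the rises were those of FAL1 (SAKL0D03960g), a helicase, at 1.09 and RSA1 (SAKL0A04906g), an assembly factor, at 0.99. FAL1 was well above background on 3 of the 4 YPD arrays and lost its call without any 1 of 3 arrays. Of the mitochondrial ribosomal proteins 7 of 35 fell, a share near the 24.3% of all genes. MRPS28 (SAKL0G07876g) was lowest at -0.95, and the median of -0.50 turned to 0.17 under spike-in scaling. Between 3 and 14 of them were called lower when 1 array was left out.

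The glutamate dehydrogenase genes of synthesis and breakdown moved in opposite directions. GDH3 (SAKL0D14982g), the NADP-dependent dehydrogenase that makes glutamate, fell by 4.34, from 2.94, 1.92, 1.96 and 3.79 to -1.67, -1.03, -2.12 and -1.93 (SE 0.40, adjusted p 2.05e-05). GDH2 (SAKL0E13024g), the NAD-dependent dehydrogenase that breaks glutamate down, rose by 3.77, from 0.37, 0.11, -0.24 and 1.23 to 3.96, 3.42, 4.16 and 4.99 (SE 0.37, adjusted p 2.72e-05). Of 14 genes of amino acid catabolism 7 rose (against 17.5% of all genes), among them CHA1 (SAKL0C00418g), serine and threonine deaminase, by 3.54.

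Of 49 genes of amino acid biosynthesis, 16 fell and 5 rose (against 24.3% and 17.5% of all genes), with a median of -0.45 that became 0.22 under spike-in scaling. CYS3 (SAKL0B09614g), cystathionine gamma-lyase, fell by 2.86 and LEU1 (SAKL0H21868g), isopropylmalate isomerase, by 1.80. Against these, LEU9 (SAKL0F05170g), an isopropylmalate synthase, rose by 4.24, LYS21 (SAKL0H09746g), homocitrate synthase, by 1.97 and MET2 (SAKL0C02266g), homoserine acetyltransferase, by 1.62. These were the 3 largest of the 5 rises.

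Sterol and haem synthesis was lower. Of 14 genes 9 fell (against 24.3% of all genes), and the median was -1.31 (-0.63 under spike-in scaling, with 5 falls called). HEM13 (SAKL0D03168g), an oxygen-dependent enzyme of haem synthesis, fell by 2.49 (4.44 ± 0.68 to 1.95 ± 0.77, SD, n = 4, adjusted p 0.000731). The sterol genes ERG4 (SAKL0H22000g), ERG28 (SAKL0F07810g) and ERG11 (SAKL0G06336g) fell by 2.33, 2.17 and 1.72. HEM1 (SAKL0H12364g), the first enzyme of haem synthesis, was the 1 gene of the list that rose, by 0.97, and its media did not overlap.

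Genes of DNA replication and histones gave 13 falls and 1 rise among 26 (24.3% of all genes fell and 17.5% rose), with a median of -0.62 that became 0.05 under spike-in scaling. The flap endonuclease gene RAD27 (SAKL0E03300g) fell by 2.07 and POL30 (SAKL0B07128g), the sliding clamp of DNA polymerase, by 2.04. RNR2 (SAKL0G13464g), a subunit of ribonucleotide reductase, rose by 0.89 (adjusted p 0.0397), a call that was lost without any 1 of 7 of the 8 arrays.

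Of 10 genes of trehalose and glycogen metabolism 6 rose (against 17.5% of all genes), led by SGA1 (SAKL0E07920g), a glucoamylase, at 2.79 and ATH1 (SAKL0F13442g), acid trehalase, at 1.40. Of 12 genes of oxidative stress 6 rose and 2 fell, against 17.5% and 24.3% of all genes. PRX1 (SAKL0F12320g), the mitochondrial peroxiredoxin, rose by 2.97, from -0.67 ± 0.33 to 2.30 ± 0.18 (SD, n = 4, adjusted p 1.18e-06), and CTT1 (SAKL0F05742g), the cytosolic catalase, by 2.09, while TSA2 (SAKL0G05940g), a cytosolic peroxiredoxin, fell by 1.30. Of 19 chaperone and heat shock genes 3 rose and 2 fell, shares no higher than the 17.5% and 24.3% of all genes. The rises were HSP30 (SAKL0B06050g), a plasma membrane protein, at 6.14, HSP12 (SAKL0B02090g), also of membranes, at 1.56 and HSP31 (SAKL0G16126g) at 1.47. HSP30 and SGA1 were well above background on 3 of the 4 YPD arrays. SSB1 (SAKL0E13618g), a chaperone at the ribosome, fell by 1.41, and HSP60 (SAKL0E02024g), a mitochondrial chaperonin, by 0.90, the latter with its call lost without any 1 of 4 arrays.

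HSP26 (SAKL0D02794g), a small heat shock protein, was decided by a single array. It read -3.09, 3.28, -4.41 and -6.11 in YPD and -1.27, -0.39, -1.34 and -1.61 in YPGly, with a change of 1.43 (SE 1.57, adjusted p 0.476). Without YPD replicate 2 the change was 3.39 and called (adjusted p 0.00191). Between 3 and 9 genes of the chaperone list were called higher when 1 array was left out.

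A family that acts on maltose and isomaltose rose in all 6 of its genes (against 17.5% of all genes), by 3.26 to 8.92. MAL11 (SAKL0A05676g), a maltose and alpha-glucoside permease, went from -6.74, -5.72, -6.26 and -6.20 to 2.38, 1.76, 3.15 and 3.47 (SE 0.36, adjusted p 6.24e-08), with 1 of 4 YPD arrays well above background. IMA1 (SAKL0A05654g), an isomaltase gene, rose by 5.80 (SE 0.17, adjusted p 8.24e-09), from -1.97, -2.14, -1.91 and -1.87 to 3.89, 3.47, 4.08 and 3.85. IMA1 (SAKL0C02112g) rose by 4.72, IMA5 (SAKL0A00154g) by 5.41 and IMA5 (SAKL0C00176g) by 4.68. The names of 3 of the 6 probes mark shared sequence, among them that of IMA1 (SAKL0A05654g), so members may share signal.

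Of 11 phosphate genes 7 rose and 1 fell, against 17.5% and 24.3% of all genes. SPL2 (SAKL0E12144g), a regulator of phosphate transport, rose by 5.80, PHO11 (SAKL0B07678g), an acid phosphatase, by 4.27, and PHO84 (SAKL0D00814g), the high-affinity phosphate transporter, by 3.53, from 1.48, 2.45, -0.54 and 0.43 to 4.15, 4.80, 4.35 and 4.64 (adjusted p 0.000367). PHO3 (SAKL0G17028g), another acid phosphatase, fell by 2.40. SPL2 and PHO11 were well above background on 3 of the 4 YPD arrays. Of 17 iron uptake genes 5 rose and 4 fell (17.5% and 24.3% of all genes), the falls near the share over all genes. The list's median of -0.22 (0.46 under spike-in scaling) was near that of all genes. ARN4 (SAKL0E00132g), a siderophore transporter, was not well above background on any YPD array and was at least 36.9-fold higher in YPGly. Its measured change had an adjusted p of 8.03e-07 (limma), which does not test that bound. FTR2 (SAKL0B03322g), an iron permease that the study also lists as FTR1, rose by 1.84. The reductase gene FRE5 (SAKL0F14740g) and the low-affinity transporter gene FET4 (SAKL0B00308g) fell by 2.43 and 2.02. The probe of FET4 is marked as shared.

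Among genes outside these lists that were well above background on all 8 arrays, the largest rise belonged to SAKL0H07018g, with no ortholog symbol here, from -2.67, -2.65, -2.98 and -2.44 to 4.90, 5.33, 5.56 and 5.71 (8.06, SE 0.20, adjusted p 4.31e-09). In the same set it was followed by SPS100 (SAKL0E12298g), a spore wall protein, at 7.45, YIG1 (SAKL0A04554g) at 5.52, AGX1 (SAKL0B01298g), which makes glycine from glyoxylate, at 5.22, SNQ2 (SAKL0H21010g), a multidrug exporter, at 5.21 and SAKL0H18964g at 5.14. SAKL0C13970g, not well above background on any YPD array, was at least 21.4-fold higher. The adjusted p of its measured change was 2.76e-05 (limma), which does not test that bound. Of the 60 genes that rose by at least 4, 31 belonged to the lists above and 14 had no symbol. Of all 4255 genes tested, 555 belonged to a list and 2157 had a symbol. The lists were chosen with earlier results of these data known.

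The falls outside the lists were led by SAKL0H11770g, from 0.92, 0.83, 1.09 and 1.06 to -3.79, -4.80, -4.60 and -4.71 (5.45, SE 0.22, adjusted p 6.34e-08). FSH1 (SAKL0G10780g), a serine hydrolase, fell by 5.32, from 0.91 ± 0.74 to -4.41 ± 0.15 (SD, n = 4). MEP2 (SAKL0E12254g), an ammonium permease, and DUR1,2 (SAKL0H10560g), the urea amidolyase, fell by 3.68 and 3.26. SAM2 (SAKL0C01870g), which makes S-adenosylmethionine, fell by 3.59 and BUD16 (SAKL0D11506g), a putative pyridoxal kinase, by 3.59. SAKL0F04356g and SAKL0F07194g, with no symbol here, fell by 3.54 and 3.37.

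Genes that share an ortholog symbol did not always move together. Of 65 symbols with at least 2 genes tested, 6 had members called in opposite directions: ACF2, ARA1, NDI1, PDC1, SCW4 and SPS19, named here after their values were seen. In 17 of the 65 every member was called the same way.

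**Figure D4:**
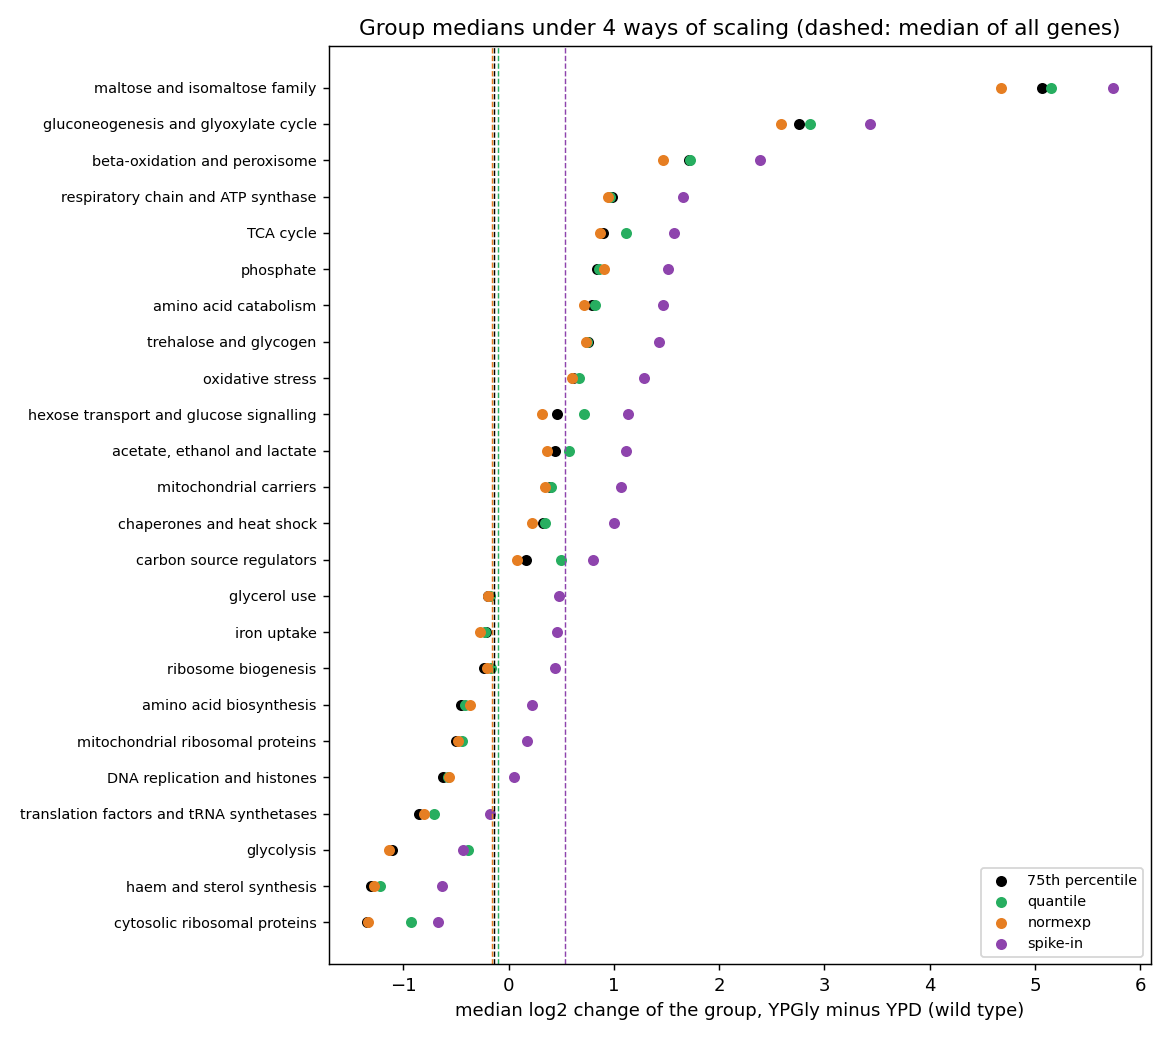
Median log2 change of 24 gene groups in the wild type, YPGly against YPD, with arrays scaled to the 75th percentile (black), by quantile normalization (green), after normexp background correction (orange) or to the spike-in probes (purple). Dashed lines mark the median of all genes under each scaling, -0.14 for the 75th percentile and 0.53 for the spike-in probes. Cytosolic ribosomal proteins stayed below 0 under each, and glycerol use, iron uptake, ribosome biogenesis, amino acid biosynthesis, mitochondrial ribosomal proteins and DNA replication genes crossed 0 under spike-in scaling.

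Whether the response was particular to wild-type cells was tested with the difference between its medium effect and that of sef1Δ over all 16 arrays. The effect differed for 28 of 4255 genes (0.658%; limma, Benjamini-Hochberg), with 407 genes at an unadjusted p under 0.05, and 21 of the 28 were genes called in the wild type. For 8 of the 14 that rose in the wild type the rise was larger there. MAL11 rose by 8.92 in the wild type and by 2.94 in sef1Δ, a fitted difference of 5.98 (adjusted p 0.00405). It was well above background on only 1 of the 4 wild-type YPD arrays, so the size of that difference is not exact. IMA1 (SAKL0A05654g) differed by 4.07 (limma, adjusted p 2.21e-06) and IMA5 (SAKL0C00176g) by 2.97 (adjusted p 0.0236). The probes of both are marked as shared, so their differences may not be separate. ADH3 (SAKL0B08184g) rose by 1.29 in the wild type and had a change of -0.71 in the mutant (adjusted p 0.00517), and SAKL0H07018g had a difference of 2.19 (adjusted p 0.00328).

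Other genes responded less or oppositely in the wild type. PCK1 rose by 6.10 in the wild type and by 8.80 in sef1Δ (difference -2.70, adjusted p 0.0186), and PYC1 changed by -1.08 in the wild type and 1.42 in sef1Δ (difference -2.50, adjusted p 6.49e-05). The fall of SAKL0H11770g, in contrast, was larger in the wild type, by 1.63 (limma, adjusted p 0.0195). Among the TCA cycle, respiratory chain, beta-oxidation and cytosolic ribosomal protein genes no difference was called by limma. At an unadjusted p under 0.05 were 4 of 21, 1 of 23, 1 of 25 and 12 of 74 of them, against 407 of all 4255 genes. The shares of the TCA cycle and ribosomal protein genes were above that over all genes, and those of the other groups below it. The count of 28 was 57 with the replicate number as a block and 54 without YPGly replicate 4 of the wild type.

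**Figure D5:**
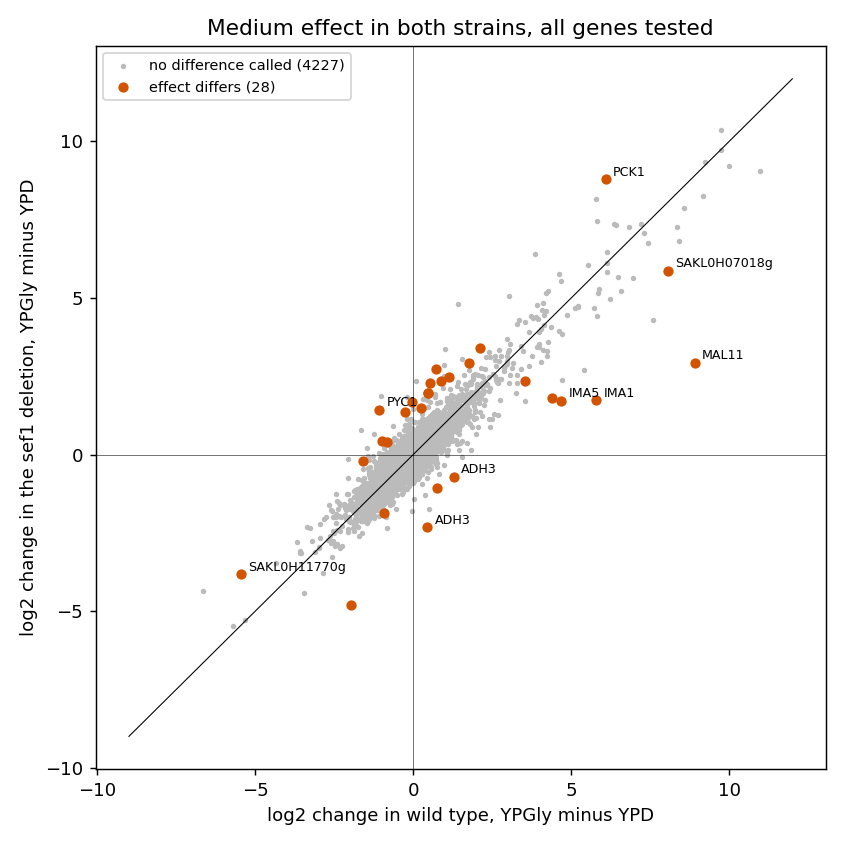
Log2 change in YPGly against YPD in the wild type (horizontal axis) and in sef1Δ (vertical axis) for the 4255 genes tested, with the line of equal change. Orange points are the 28 genes whose change differed between strains, and those described in the text are labelled: MAL11, IMA1, IMA5 and both ADH3 genes lie below the line, PCK1 and PYC1 above it. The ADH3 gene SAKL0E02838g is drawn from its brighter probe, and its probes disagreed in the wild type.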

How the data were processed

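RNA of the 8 wild-type cultures was measured on custom 1-colour Agilent arrays with 2 probes for most genes, from cDNA primed with oligo(dT). The authors read the scans with Feature Extraction 10.5.1.1, and the deposited processed signal is an intensity, background-subtracted and not scaled between arrays. The log2 values in the table the authors deposited equal those used here up to a constant per array. The authors called changes with an unpaired t-test on values scaled to the 75th percentile.

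Here log2 of the processed signal minus that of the array's 75th percentile was used, without spots flagged as non-uniform. The brighter probe stood for its gene, and a gene was tested if its signal reached 200 throughout 1 or more of the 4 groups, with limma 3.58.1 in R 4.3.3. Where a gene was not well above background on any YPD array, the fold is a lower bound: the YPGly mean against the mean, over YPD arrays, of the higher of the lowest signal well above background and the gene's own signal. The adjusted p given with such a gene is that of the measured change and does not test the bound. Signal of these genes on the wild-type YPD arrays was too low for the filter, so they were tested through brighter groups. The same held for other genes with large rises, among them ACS1, PCK1, ICL1, ADY2, JEN1 (SAKL0F02178g), POX1, FOX2, POT1, PXA1, SFC1 and SAKL0H07018g. They were tested because they were bright in another group, so their adjusted p is not free of that selection. Genes were named as the 12 largest rises and falls well above background on all 8 arrays with both probes in the same direction, genes above background in 1 medium only, members of lists, and genes whose call depended on 1 array. The lists and the named members were chosen with earlier results of these data known. Symbols name the baker's yeast ortholog that the study's tables give for a gene.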

Additional observations from a re-analysis of the deposited data

Results flagged for a closer look

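Of 297 groups of 4 arrays tested for the genes named, 24 held an array far from the other 3, where chance flags about 1 in 20. YPGly replicate 4 held 6 of them: IDP3 at 4.30, ACO1 at 4.90, both above the rest, the NDI1 gene SAKL0C09438g at -2.46, YMC2 (SAKL0A10670g) at -3.39 and LYS21 (SAKL0H09746g) at 1.08, all 3 below the rest, and the alpha factor precursor at -1.97, above the rest. YPD replicate 4 held 5: DLD1 at -1.10, the NDI1 gene SAKL0D01056g at 0.73, RSA1 at -3.69, MET2 at -0.29 and ARN4 at -5.92. YPD replicate 2 held another 5: USV1 at -1.13, RPS14A at 3.85, CYS3 at 1.25, SSB1 at 5.38 and TSA2 at 3.83. The remaining values were ATH1 at -2.68 and SAKL0H18964g at -1.50 on YPD replicate 1, HYP2 at 4.97 and SAKL0F07194g at -1.75 on YPD replicate 3, HSP12 at 5.52 and HSP60 at 0.49 on YPGly replicate 1, HYP2 at 2.59 on YPGly replicate 2, and ADH4 at 0.0259 on YPGly replicate 3.

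The medium effect differed between the wild type and sef1Δ for 9 of the genes named (limma interaction over 16 arrays). Wild type minus sef1Δ, the difference was 5.98 for MAL11, 4.07 for IMA1 (SAKL0A05654g), 2.97 for IMA5 (SAKL0C00176g), 2.77 for ADH3 (SAKL0E02838g), 2.19 for SAKL0H07018g, 2.00 for ADH3 (SAKL0B08184g), -1.63 for SAKL0H11770g, -2.50 for PYC1 and -2.70 for PCK1. The probes of these IMA1 and IMA5 genes are marked as shared. The value of ADH3 (SAKL0E02838g) is that of its brighter probe. In the wild type that probe changed by 0.44 and the dimmer by -3.78, so this difference is not settled either.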

How the results depend on the processing

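Of 149 named genes, 96 kept their direction and call under every alternative run. The 746 higher and 1036 lower genes became 1497 and 179 with spike-in scaling, a share of higher calls of 89.3% against 41.9%, 451 and 547 within slide 1, 401 and 488 within slide 2 (both with 4 of the 8 arrays), and 428 and 520 at a 2-fold threshold. Leaving out 1 array gave 675 to 753 higher and 912 to 1087 lower. The methods' t-test gave 724 and 1012 uncorrected and 646 and 881 after Benjamini-Hochberg adjustment. The 28 genes that differed between strains became 11 with spike-in scaling, 15 with the dimmer probe, 1 within slide 1, 0 within slide 2 by limma (229 at an unadjusted p under 0.05), 169 with array weights and 20 to 54 on leaving out 1 array, 54 being without YPGly replicate 4. With the replicate number as a block, 771 genes were higher and 1085 lower, 1772 of the 1782 calls were kept, and 57 differed between strains. The numbers are not stated to mark shared cultures. Arrays of the same number also lay on the same slide and in the same row of it, so number and position cannot be told apart. Deviations of same-numbered arrays correlated at 0.37, 0.26, -0.00 and 0.28. YPD replicates 1, 2 and 4, but not 3, correlated best with the YPGly array of their own number. STL1 (SAKL0G18810g) became -0.30 within slide 1 and -0.10 to 0.85 on leaving out 1 array (the lowest without YPD replicate 4), and HSP26 (SAKL0D02794g) -0.92 within slide 1. ADH3 (SAKL0E02838g) became -1.67 with the mean of both probes and -3.78 with the dimmer. CAT8 (SAKL0D01342g) became 0.57 with quantile normalization, 0.55 with spike-in scaling, 1.37 with the mean of both probes (where YPD replicate 3, its brighter spot left out, rests on the dimmer probe alone), 1.16 with the dimmer, 0.0409 with the replicate block, 0.0520 within slide 2 and -0.113 to 0.0738 on leaving out 1 array. Where no value shows it, the cause was not tested. Genes near the background in YPD are limited most by the array of YPD replicate 4, whose negative controls were brightest.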
